A study of Mus musculus with 12 samples.

Results

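The circadian clock genes described here are the 10 genes Arntl, Clock, Npas2, Nr1d1, Nr1d2, Per1, Per2, Per3, Dbp and Ciart, picked by symbol from the 56748 genes of the deposited count table. The choice was made with the counts of these livers known, so the levels and fold changes of these 10 genes are given as a description. Calls among them are only counted, beside those of all genes, and nothing is read from the counts. RNA-seq was run on 12 livers of C57BL6 mice, 4 per genotype, and each mouse had been fasted for 24 h. The first group is labelled ATF3;CPT2 liver-specific double KO (DKO), which names Atf3, a stress-induced transcription factor, and Cpt2, the inner-membrane carnitine palmitoyltransferase that mitochondrial fatty acid oxidation needs. The second is labelled CPT2 liver-specific KO (SKO). The third is labelled CPT1A/1B/2 triple floxed control and is called WT. Liver knockouts were bred with Cre under the albumin promoter, which acts chiefly in hepatocytes, so cells in which it is not active keep the genes. The labels give neither age nor sex nor a collection time for single livers. The study describes mice kept on a long-day light cycle, fasted from afternoon to afternoon.

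Total counts ran from 14710304 to 20030055 per liver, and a count of 3 was worth 0.150 to 0.204 CPM (counts scaled by library size). Atf3 had 17 to 39 counts in WT and 259 to 1056 in SKO. In DKO it had 164, 177 and 265 counts in replicates 1 to 3 and 5 in replicate 4, so 3 of the 4 DKO livers had more Atf3 counts than any WT liver, against what the label would give for a gene without transcript. Cpt2 had 3658 to 4543 counts in WT, against 1725 to 3098 in SKO and 1876 to 2468 in DKO. These are counts over whole genes, which do not show whether the reads fall in the deleted exons, so they check the labels only in part, and each liver is called here by its label. SKO replicate 3 and DKO replicate 4 held 18063 and 20855 counts of Xist, the RNA of the inactive X chromosome, and 2 and 0 counts of Y-linked genes. The other livers held at most 19 Xist counts and at least 2741 Y-linked counts, although the study describes the RNA-seq mice as males. DKO replicate 4 also differed from the other DKO livers in 3 of 6 hepatocyte markers. It had 74165 CPM of Alb beside 24688 to 28454, 3901 of Ttr beside 1738 to 2087 and 1579 of Serpina1a beside 731 to 901. It lay inside their range for Cps1 and Hnf4a, and for Apoa1 it was the lowest of the 12 livers at 5135 CPM. The summed level of the 6 markers (Alb, Ttr, Apoa1, Serpina1a, Cps1 and Hnf4a) was 70969 to 88327 CPM in WT, against 38870.3 to 66509 in SKO and 40249 to 90243 in DKO, where replicate 4 was the highest, and most of this sum is Alb. None of the 6 was at 0 in any liver, and edgeR called 3 of them (Alb, Ttr and Serpina1a) lower in SKO than in WT, where 15.4% of all tested genes were called lower, and 1 (Serpina1a) lower in DKO, where 4.39% were. Markers of other liver cells also differed, beside 16.7% of all tested genes called higher in SKO and 6.06% in DKO. In SKO, Cd68 of 7 macrophage markers rose by 2.28 on the log2 scale and Dcn of 6 stellate cell markers by 0.61, the erythroid markers Hbb-bs and Hba-a1 rose by 1.33 and 1.27, and Sox9 and Spp1 of 5 cholangiocyte markers fell by 1.87 and 1.44, all past the threshold in edgeR. These were single members of their lists: in SKO, 3 of the 7 macrophage markers and 2 of the 6 stellate cell markers had negative estimates. In DKO, Marco alone of the 7 macrophage markers passed, falling by 1.95 with ranges that overlapped WT. Cd68 went the other way there, at 1.09, and did not pass. Sox9 fell by 1.71 in DKO. The summed cholangiocyte markers ran from 27.9 to 33.3 CPM in WT, from 7.41 to 14.4 in SKO and from 9.60 to 31.1 in DKO, and none of the 5 was at 0 in every liver. DKO replicate 4 was the highest DKO liver in that sum. It was also the highest in the summed macrophage markers, at 277 CPM where the lowest DKO liver had 90.7, although its Cd68, at 9.48 CPM, was the lowest in DKO. The DKO differences from WT described below are given with and without replicate 4 where it matters to the value, and the part that sex and marker levels have in the clock gene values was not tested.

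The mammalian clock is a transcriptional loop that runs in most cells, hepatocytes included. ARNTL (BMAL1) pairs with CLOCK or with its relative NPAS2, binds E-boxes and activates the Per and Cry genes, Nr1d1, Nr1d2, Dbp and Ciart. PER and CRY proteins and CIART then inhibit that pair, while the REV-ERB receptors encoded by Nr1d1 and Nr1d2 repress Arntl through ROR elements, so that Arntl RNA peaks when the RNA of the genes it activates is low. In liver the loop sets daily rhythms in bile acid, sterol, NAD and heme metabolism, and feeding time shifts it.

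The sequence around the start sites shows which of these elements the genes carry. RefSeq promoters (GRCm38.p6, 300 bases each around a start site) were at hand for 9 of the 10 genes, all but Per2, in 13 windows. Both strands were searched for the E-box CACGTG, which reads alike on both strands, the E'-box CACGTT, the D-box TTATGTAA or TTATGCAA bound by DBP and its relatives, the ROR element TAGGTCA or TGGGTCA, the CRE core TGACGT bound by CREB and ATF proteins, and the full CRE TGACGTCA, which contains that core. The 4 windows with the clearest elements are shown 5′ to 3′ on the strand of the gene, in lower case with the matched letters in capitals. Ciart is at chr3:95882179-95882478 (minus strand), Per3 at chr4:151044616-151044915 (minus), the first Per1 window at chr11:69098699-69098998 (plus) and the second Arntl window at chr7:113207261-113207560 (plus).
Ciart: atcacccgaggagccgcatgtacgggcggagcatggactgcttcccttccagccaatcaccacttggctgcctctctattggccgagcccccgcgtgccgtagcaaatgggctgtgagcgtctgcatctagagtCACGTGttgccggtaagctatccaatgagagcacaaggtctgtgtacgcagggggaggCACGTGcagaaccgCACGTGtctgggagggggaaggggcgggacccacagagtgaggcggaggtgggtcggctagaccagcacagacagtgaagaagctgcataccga
Per3: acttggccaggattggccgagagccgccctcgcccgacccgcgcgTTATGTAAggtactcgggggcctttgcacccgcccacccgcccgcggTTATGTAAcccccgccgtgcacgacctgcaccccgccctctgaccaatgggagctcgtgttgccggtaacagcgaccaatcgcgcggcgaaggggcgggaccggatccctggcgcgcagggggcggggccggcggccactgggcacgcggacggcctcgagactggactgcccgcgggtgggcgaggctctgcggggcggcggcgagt
Per1 window 1: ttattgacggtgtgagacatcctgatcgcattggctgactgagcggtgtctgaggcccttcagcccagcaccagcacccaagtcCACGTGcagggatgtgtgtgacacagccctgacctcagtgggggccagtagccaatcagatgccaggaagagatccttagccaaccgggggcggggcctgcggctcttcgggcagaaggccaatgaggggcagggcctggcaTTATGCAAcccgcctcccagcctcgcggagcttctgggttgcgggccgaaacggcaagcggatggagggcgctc
Arntl window 2: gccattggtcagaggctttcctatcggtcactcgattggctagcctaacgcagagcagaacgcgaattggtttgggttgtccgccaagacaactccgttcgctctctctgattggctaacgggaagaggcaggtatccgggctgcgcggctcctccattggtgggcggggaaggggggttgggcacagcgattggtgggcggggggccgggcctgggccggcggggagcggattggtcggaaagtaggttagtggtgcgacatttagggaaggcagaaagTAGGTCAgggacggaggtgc

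Ciart carried 3 E-boxes, whose first bases lie at -116, -58 and -44 from the start site. An E-box was found in 7.15% of all 32851 mouse promoter windows of the same length. Per3 carried 2 D-boxes, at -205 and -158, an element found in 1.66% of all windows. The first Per1 window held both an E-box at -166 and a D-box at -24. The second Per1 window held a CRE core at -132, which 7.51% of all windows have, and no full CRE, which 1.79% have. The second Arntl window held a ROR element at 30 bases past the start, an element of 6.45% of all windows. Nr1d1 had an E'-box at -28, which 4.68% of all windows share. The windows of Clock, Npas2, Nr1d2 and Dbp held none of these letters, which says nothing of elements outside them.

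**Figure D1:**
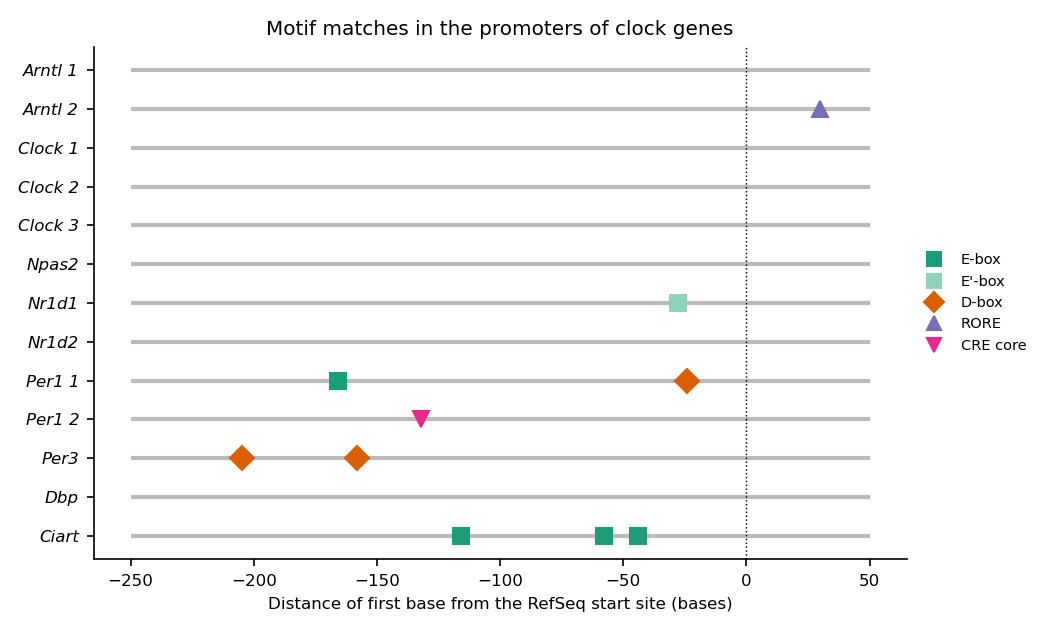
Motif matches in the 13 RefSeq promoter windows of 9 clock genes, by distance in bases from the annotated start site (dotted line); each marker is the first base of a match on either strand. Ciart has 3 E-boxes and Per3 has 2 D-boxes, while the windows of Clock, Npas2, Nr1d2 and Dbp have no marker.

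Per length, the clock genes spanned a wide range in fasted WT liver. In the deposited FPKM values (fragment counts scaled by gene length and library size), Nr1d1 averaged 27.5, Dbp 24.9, Nr1d2 24.3, Ciart 23.1 and Per1 18.9 over the 4 WT livers, and the ranges of neighbours among these 5 overlapped. Per2 and Per3 followed at 9.74 and 7.09 FPKM, also with overlapping ranges. Clock was below Per3 in all 4 WT livers, at 4.31 FPKM. Arntl averaged 0.51 FPKM and Npas2 0.04, so the activator genes were the least abundant of the 10. From here on, values are CPM scaled by TMM factors (trimmed mean of M values, computed over the 12 livers), for comparing 1 gene between livers.

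Arntl (ENSMUSG00000055116, chromosome 7) encodes BMAL1, the partner that the activating pair cannot do without. Its level was 5.67, 4.75, 1.63 and 2.58 CPM in WT replicates 1 to 4, 3.12, 1.33, 2.44 and 5.61 in SKO, and 13.9, 18.7, 8.39 and 2.88 in DKO. DKO replicates 1 to 3 were higher than each of the 8 other-genotype livers, while DKO replicate 4 lay inside the WT range. The means were 3.66 ± 1.87 CPM (SD, n = 4) in WT, against 3.13 ± 1.81 in SKO and 11.0 ± 6.87 in DKO. On the log2 scale the edgeR estimate was -0.24 (SE 0.46) for SKO against WT, 1.58 (SE 0.55) for DKO against WT and 1.82 (SE 0.55) for DKO against SKO. Without DKO replicate 4 the difference of DKO from WT was 1.89. Since whole livers were sequenced, a change in the cells that carry an RNA and a change in RNA per cell cannot be told apart, for this and for every other gene.

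Clock (ENSMUSG00000029238, chromosome 5), the DNA-binding partner of BMAL1, varied far less. It read 61.9, 57.8, 53.6 and 53.3 CPM in WT, 48.5, 23.3, 51.2 and 49.1 in SKO, and 69.7, 98.3, 56.7 and 46.9 in DKO. All 4 SKO livers were below all WT livers, but by a small margin in 3 of them, and SKO replicate 2 stood apart at 23.3 CPM. The DKO livers lay on both sides of the WT range. The log2 difference was -0.40 (SE 0.21) for SKO against WT, 0.27 (SE 0.20) for DKO against WT, or 0.40 without replicate 4, and 0.67 (SE 0.28) for DKO against SKO. Npas2 (ENSMUSG00000026077, chromosome 1), which can stand in for Clock, was close to the counting floor. It had 4, 6, 2 and 1 counts in WT, 1, 7, 9 and 3 in SKO, and 20, 18, 5 and 8 in DKO, and it did not pass the filter on low counts. Its highest counts were those of DKO replicates 1 and 2, the livers that were also highest in Arntl and Clock.

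**Figure D2:**
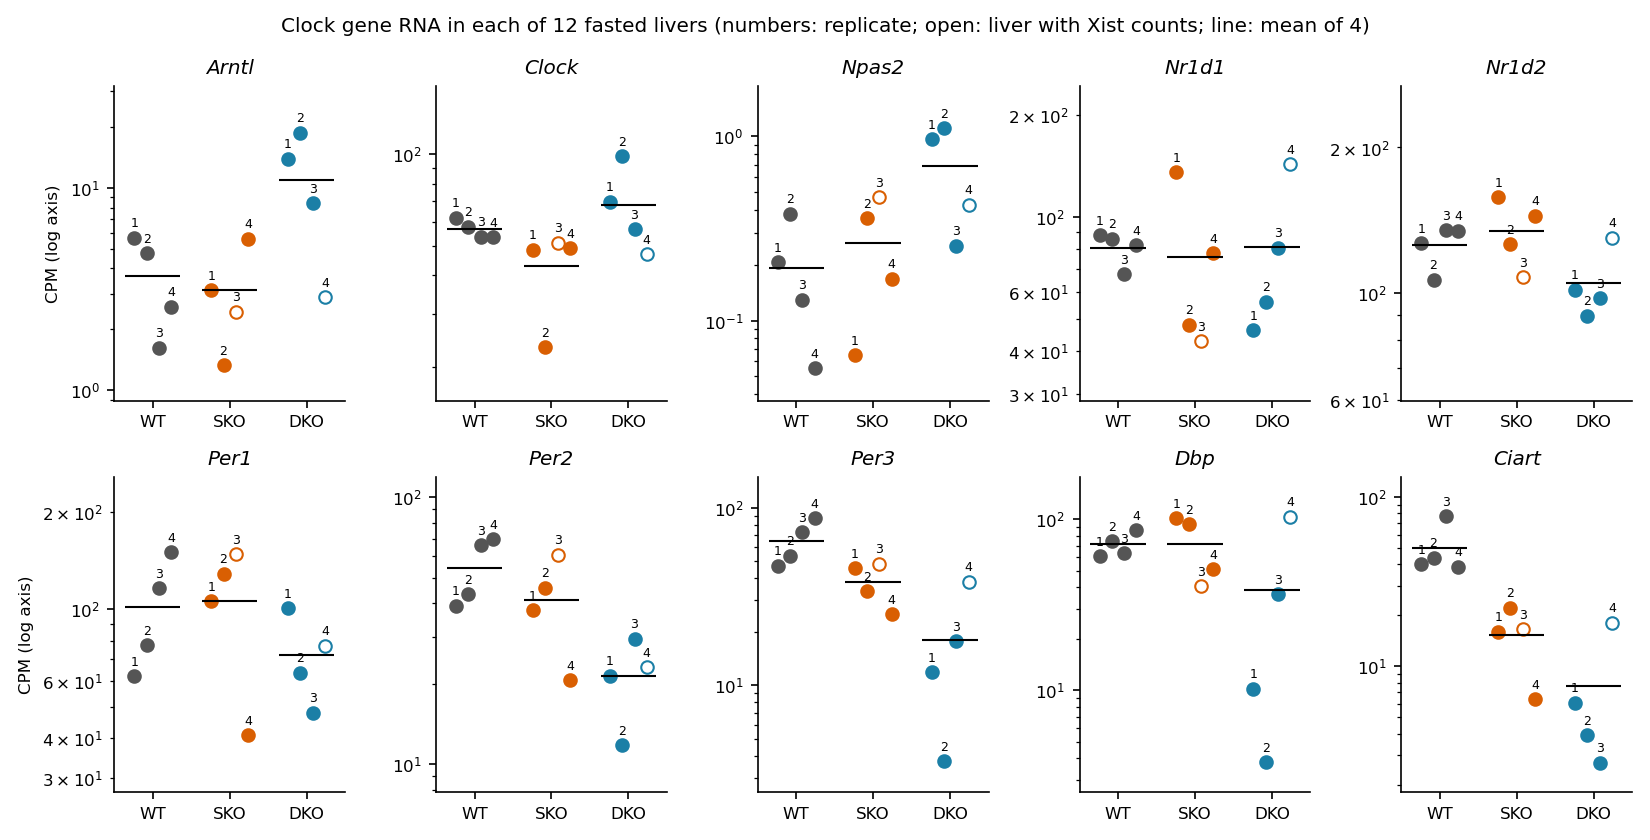
Level of each of the 10 clock genes in the 12 livers, in CPM on a log axis with its own range per gene; points are livers with their replicate number, open points are the livers with Xist counts, and lines are means of 4. Arntl is highest in DKO replicates 1 to 3 and Ciart is lower in all SKO and DKO livers than in WT, while DKO replicate 4 lies apart from the other DKO livers in Dbp, Per3 and Nr1d1.

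The REV-ERB genes, whose proteins repress Arntl, had ranges that overlapped between the 3 genotypes. For Nr1d2 the DKO livers overlapped the others only through replicate 4. Nr1d1 (ENSMUSG00000020889, chromosome 11), which encodes REV-ERBα, read 88.1, 86.0, 67.5 and 82.2 CPM in WT, 135, 47.9, 42.8 and 78.1 in SKO, and 46.1, 56.1, 80.9 and 143 in DKO. Its mean was 80.9 ± 9.28 CPM in WT, against 76.0 ± 42.5 in SKO and 81.5 ± 43.5 in DKO, so the knockout livers spread around the WT level in both directions. The highest liver was 1.30 times the lowest in WT, 3.16 times in SKO and 3.10 times in DKO. The lowest DKO livers were replicates 1 and 2, those with the most Arntl RNA. The DKO mean was 61.0 CPM without replicate 4. The log2 difference of DKO from WT was 0.03 with replicate 4 and -0.40 without it. Nr1d2 (ENSMUSG00000021775, chromosome 14), which encodes REV-ERBβ, kept a narrow range, at 127, 107, 135 and 134 CPM in WT, 158, 126, 108 and 145 in SKO, and 101, 89.6, 97.4 and 130.0 in DKO, where replicate 4 was again the highest. DKO replicates 1 to 3 were below every WT and SKO liver in Nr1d2. The log2 difference was 0.09 (SE 0.14) for SKO against WT and -0.33 (SE 0.18) for DKO against SKO. For DKO against WT it was -0.25 (SE 0.15), or -0.38 without replicate 4.

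The Per genes, whose proteins inhibit the BMAL1 pair together with CRY, were lower in DKO than in WT on average, least so for Per1. Per1 (ENSMUSG00000020893, chromosome 11), which light, glucocorticoids and cAMP can also induce, read 62.0, 77.3, 116 and 150.3 CPM in WT, 106, 129, 148 and 40.7 in SKO, and 101, 63.7, 47.8 and 77.2 in DKO. The 3 genotypes overlapped, and the log2 difference was 0.06 (SE 0.36) for SKO against WT and -0.47 (SE 0.30) for DKO against WT, or -0.51 without replicate 4. Per2 (ENSMUSG00000055866, chromosome 1) read 39.2, 43.2, 65.9 and 69.7 CPM in WT, 37.6, 45.8, 60.9 and 20.7 in SKO, and 21.4, 11.8, 29.5 and 23.1 in DKO. All 4 DKO livers were below all WT livers, and here replicate 4 lay among the other DKO livers. The means were 54.5 ± 15.5, 41.3 ± 16.8 and 21.4 ± 7.32 CPM in WT, SKO and DKO. The log2 difference was -0.40 (SE 0.29) for SKO against WT, -1.33 (SE 0.29) for DKO against WT and -0.92 (SE 0.35) for DKO against SKO. Without replicate 4 the second of these was -1.37.

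Per3 (ENSMUSG00000028957, chromosome 4) went lower still. Its window shown above holds 2 D-boxes, while Per2 had no window to search, and whether such elements bear on the levels was not tested. It read 47.0, 53.5, 72.8 and 86.9 CPM in WT, 45.7, 33.7, 48.3 and 25.1 in SKO, and 11.8, 3.74, 17.7 and 38.3 in DKO. Each DKO liver was below each WT liver, and DKO replicates 1 to 3 were also below every SKO liver. The means were 65.1 ± 18.2, 38.2 ± 10.8 and 17.9 ± 14.8 CPM. The log2 difference was -0.77 (SE 0.23) for SKO against WT and -1.84 (SE 0.55) for DKO against WT, and the latter was -2.53 without DKO replicate 4. Within DKO the highest liver had 10.2 times the Per3 level of the lowest, against 1.85 times in WT.

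Ciart (ENSMUSG00000038550, chromosome 3), whose protein CHRONO inhibits the BMAL1 pair and whose window holds 3 E-boxes, was the member with the widest gap between controls and knockouts. It read 40.1, 43.8, 76.7 and 38.8 CPM in WT, 16.0, 22.2, 16.6 and 6.40 in SKO, and 6.08, 3.92, 2.69 and 18.1 in DKO. Every knockout liver of either kind was below every WT liver. DKO replicates 1 to 3 were below all SKO livers, and DKO replicate 4 lay inside the SKO range. The means were 49.9 ± 18.0 CPM in WT, against 15.3 ± 6.56 in SKO and 7.69 ± 7.05 in DKO. The log2 difference was -1.70 (SE 0.33) for SKO against WT, -2.67 (SE 0.55) for DKO against WT and -0.95 (SE 0.57) for DKO against SKO. In the DKO livers this was a 6.39-fold lower level than in WT, and the log2 difference was -3.54 without DKO replicate 4.

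Dbp (ENSMUSG00000059824, chromosome 7) encodes a D-box activator that carries the clock signal to liver enzymes, and of the 10 genes it had the widest spread among the DKO livers. It read 60.7, 74.4, 63.5 and 86.7 CPM in WT, 102, 93.6, 40.6 and 51.1 in SKO, and 10.2, 3.80, 36.6 and 103 in DKO. DKO replicates 1 to 3 were below all WT and SKO livers, and DKO replicate 4 was above them all. The highest DKO liver had 27.2 times the Dbp level of the lowest, against 1.43 times in WT. The log2 difference of DKO from WT was -0.86 (SE 0.77) with all livers and -2.06 without replicate 4. That of SKO from WT was 0.01 (SE 0.26).

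**Figure D3:**
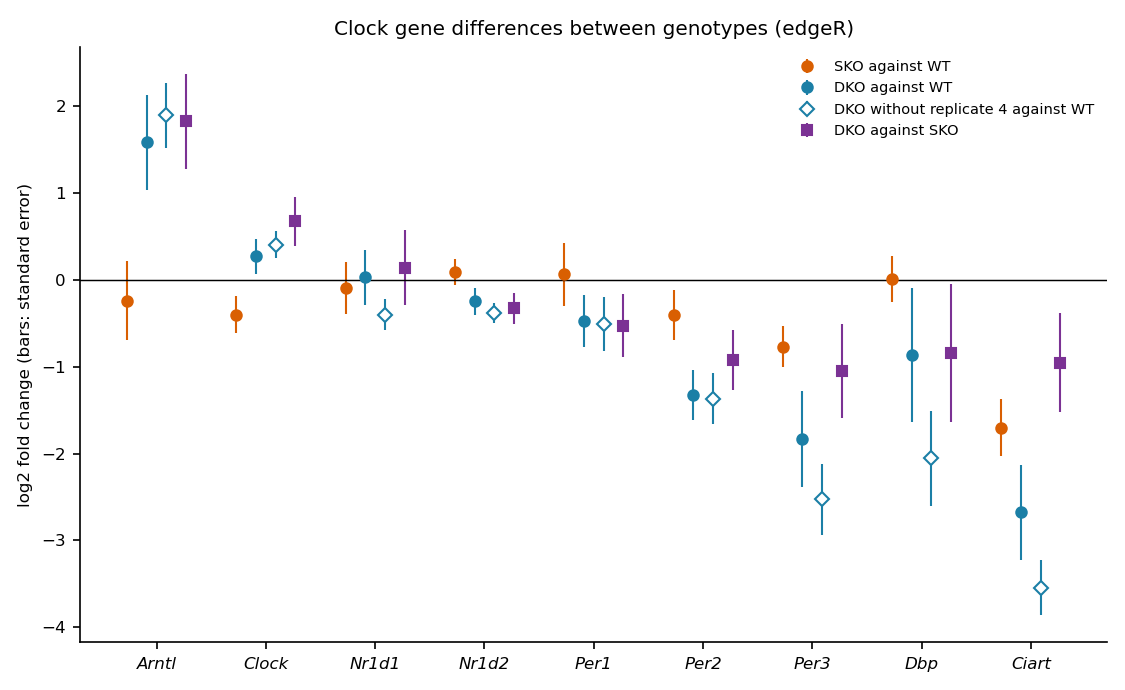
Log2 fold change of the 9 clock genes that passed the filter on low counts, by edgeR, with standard errors as bars; circles are SKO and DKO against WT, open diamonds DKO without replicate 4 against WT, squares DKO against SKO. DKO against WT runs from 1.58 for Arntl to -2.67 for Ciart, and leaving out DKO replicate 4 moves Dbp from -0.86 to -2.06.

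The livers with the most Arntl RNA, DKO replicates 1 and 2, were those with the least Per3 and Dbp RNA. The arms of the loop were then set against each other in each liver. The mean log2 CPM of the 7 repressor and output genes was subtracted from that of Arntl, Clock and Npas2. Npas2, close to the counting floor at 1 to 20 counts per liver, had the same weight as Arntl and Clock. No version without Npas2 was computed. The difference was -3.65, -3.67, -4.86 and -4.90 in WT, -4.48, -4.56, -3.68 and -3.08 in SKO, and -1.35, -0.26, -2.41 and -3.80 in DKO. DKO replicates 1 to 3 were above the 8 livers of the other genotypes, and DKO replicate 4 lay in the WT range. The group means were -4.27 ± 0.70 in WT, -3.95 ± 0.70 in SKO and -1.95 ± 1.51 in DKO, which is 2.32 higher than in WT, or 2.93 without replicate 4. Arntl and Dbp, both terms of the difference between the arms, had each set DKO replicates 1 to 3 apart already. The ratio of Arntl to Dbp is therefore no separate measure. On the log2 scale of CPM it was -5.20 to -3.40 in WT and -6.02 to -3.16 in SKO. In DKO it was 0.44, 2.27, -2.11 and -5.11 in replicates 1 to 4, the 3 highest of the 12 being those of DKO replicates 1 to 3. Per length, in FPKM, Arntl was above Dbp in DKO replicate 2 alone, at 2.53 against 1.29, and was 1.92 against 3.55 in DKO replicate 1.

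**Figure D4:**
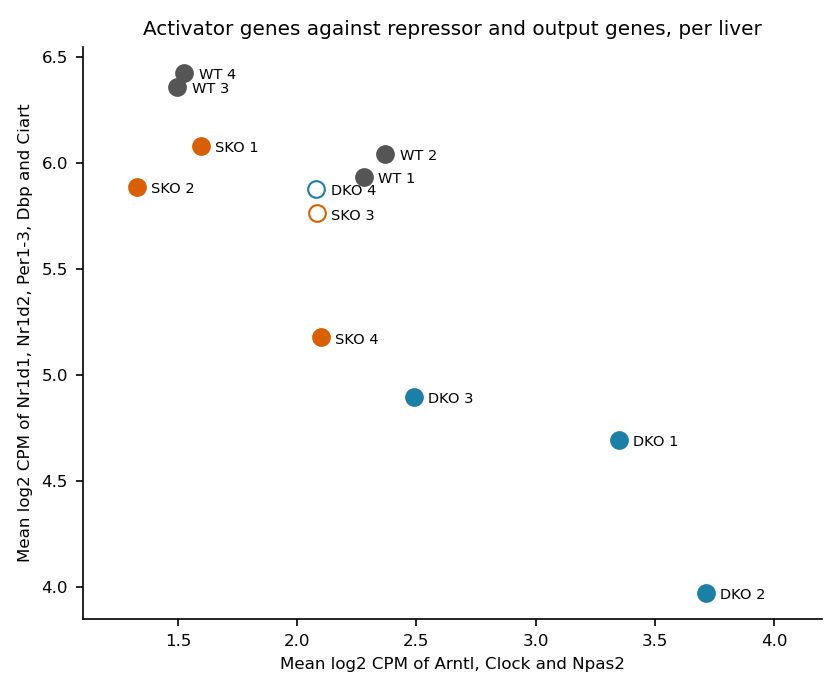
Each of the 12 livers by its mean log2 CPM of Arntl, Clock and Npas2 (horizontal) and of Nr1d1, Nr1d2, Per1, Per2, Per3, Dbp and Ciart (vertical); open points are the livers with Xist counts. DKO replicates 1 to 3 lie at the lower right, with activator means of 3.35, 3.71 and 2.49, and DKO replicate 4 lies among the WT and SKO livers at 2.08. Npas2, which has equal weight in the activator means, was close to the counting floor.

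The WT livers fell into pairs on 8 of the 10 genes, a pattern picked out after the values were seen. The share of all genes that split so was not computed, and nothing is read from the count. Replicates 1 and 2 had 5.67 and 4.75 CPM of Arntl against 2.58 or less in replicates 3 and 4. Clock, Npas2 and Nr1d1 were also higher in both replicates 1 and 2, but Npas2 had only 4 and 6 counts against 2 and 1. The order was turned round for Nr1d2, Per1, Per2 and Per3, each of which was higher in both replicates 3 and 4. Dbp and Ciart did not split the WT livers in this way. The spread of Arntl within WT, 3.49 times from lowest to highest, was wider than that of Dbp at 1.43 times or Nr1d1 at 1.30 times. The SKO livers differed too, with Arntl highest and Per1, Per2, Per3 and Ciart lowest in SKO replicate 4.

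Of the 9 genes that passed the filter, 2 (Per3 and Ciart) were called lower in SKO than in WT by edgeR's quasi-likelihood test, adjusted over all genes, and 0 were called higher. In that comparison 32.1% of all 14261 tested genes were called, 16.7% higher and 15.4% lower. In DKO against WT, 2 of the 9 (Per2 and Ciart) were called lower, where 10.5% of all tested genes were called, 6.06% higher and 4.39% lower. There 4 of the 9 had an unadjusted p under 0.05, as did 29.4% of all tested genes. Leaving out WT replicate 3 or 4 or SKO replicate 2 or 4 gave a count of 1 for SKO, and leaving out any liver but DKO replicate 4 gave 0 or 1 for DKO. These counts repeat the contrasts in which the genes were chosen, so nothing is read from them. Clock and Ciart were below WT in all 4 SKO livers, where 16.1% of all tested genes were, and Per2, Per3 and Ciart were below WT in all 4 DKO livers, where 9.05% were. The median log2 difference over the 9 was -0.24 for SKO against WT and -0.47 for DKO against WT, beside 0.03 over all genes tested in each. Without DKO replicate 4 the calls against WT rose to 6 of 9, with Arntl higher and Nr1d2, Per2, Per3, Dbp and Ciart lower, but so did those of all genes, to 35.9% (18.4% higher and 17.5% lower). In DKO against SKO edgeR called 0 of the 9, DESeq2 called 0, and 3 (Arntl, Clock and Per2) had an unadjusted p under 0.05. Of all tested genes, 6.49% had an unadjusted p under 0.05 there and 0.0209% were called. In none of the 9 did the DKO and SKO livers lie apart without overlap, as 3.94% of all tested genes did. With all livers the log2 difference of DKO from SKO was 0.14 (SE 0.43) for Nr1d1, -0.53 (SE 0.36) for Per1, -1.05 (SE 0.54) for Per3 and -0.84 (SE 0.79) for Dbp. Without DKO replicate 4 that difference was 2.14 for Arntl, 0.80 for Clock, -0.31 for Nr1d1, -0.47 for Nr1d2, -0.57 for Per1, -0.97 for Per2, -1.77 for Per3, -2.06 for Dbp and -1.84 for Ciart, and edgeR again called 0 of the 9. The SKO and DKO comparisons share the WT livers.

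Clock genes outside the 10 were read from a list of 17, of which 16 passed the filter (Rorb had no counts). SKO against WT called 7 of them, 2 higher and 5 lower, and DKO against WT called 4, all lower, beside the 32.1% and 10.5% of all tested genes given above. The latter count was 0 to 3 when any liver but DKO replicate 4 was left out. The PAR bZIP relatives of Dbp, which bind the same D-box, were lower in both knockouts. Tef averaged 335 ± 31.3 CPM in WT, against 214 ± 39.6 in SKO and 148 ± 64.8 in DKO. In edgeR's quasi-likelihood test, with p-values adjusted over all genes by the Benjamini-Hochberg method, Tef fell by 0.65 on the log2 scale in SKO (adjusted p = 0.00724) and by 1.16 in DKO (adjusted p = 0.0317). Hlf fell by 1.16 in SKO (edgeR adjusted p = 0.00218) and by 1.39 in DKO (edgeR adjusted p = 0.0198), with all livers of both knockouts at 62.1 CPM or less and WT at 85.1 or more. In DKO replicates 1 to 3 the Tef level was 125, 86.4 and 140.0 CPM, and it was 239 in replicate 4, so replicate 4 was the highest DKO liver in Tef as in Dbp. Without it the log2 difference of DKO from WT was -1.51 for Tef and -1.78 for Hlf.

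Nfil3, which encodes the repressor that competes with these factors for D-boxes, was lowest in SKO. It averaged 16.6 ± 3.78 CPM in WT, against 6.45 ± 1.52 in SKO and 13.2 ± 3.60 in DKO. It fell by 1.37 on the log2 scale in SKO against WT (edgeR adjusted p = 0.000534). All 4 DKO livers were above all SKO livers, as for 1 of the 16 genes and 2.08% of all tested genes, and 0 of the 16 had all DKO livers below, but the log2 difference of 1.04 did not pass in edgeR (adjusted p = 0.386), while it did in DESeq2 (adjusted p = 0.0254).

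The cryptochrome Cry2, a PER partner in repression, was 66.1 ± 3.09 CPM in WT, against 46.7 ± 5.11 in SKO and 34.2 ± 8.26 in DKO. It fell by 0.51 on the log2 scale in SKO (edgeR adjusted p = 0.00543) and by 0.93 in DKO (edgeR adjusted p = 0.0173), with no overlap with WT in either. Cry1 gave -0.66 in both comparisons and passed in neither. Btrc, a ubiquitin ligase subunit that targets PER for breakdown, fell by 0.62 in SKO (edgeR adjusted p = 0.0113) and by 0.50 in DKO (edgeR adjusted p = 0.0476). The kinases that phosphorylate PER were the genes that rose in SKO, with Csnk1e at 1.07 (edgeR adjusted p = 0.000194) and Csnk1d at 0.35 (edgeR adjusted p = 0.0268) on the log2 scale. In DKO, Csnk1e gave 0.91 with adjusted p = 0.0504 by edgeR. In DKO replicates 1 to 3 it was 20.5, 16.5 and 16.4 CPM, against 8.09 in replicate 4 and 7.58 to 9.57 in WT. Without replicate 4, 7 of the 16 were called in DKO against WT, 1 higher (Csnk1e) and 6 lower, where 35.9% of all genes were, and Cry2 and Btrc gave -0.95 and -0.50. In DKO against SKO edgeR called 0 of the 16, 1 had an unadjusted p under 0.05, beside 6.49% of all tested genes, and DESeq2 called 1, in each case Nfil3.

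**Figure D5:**
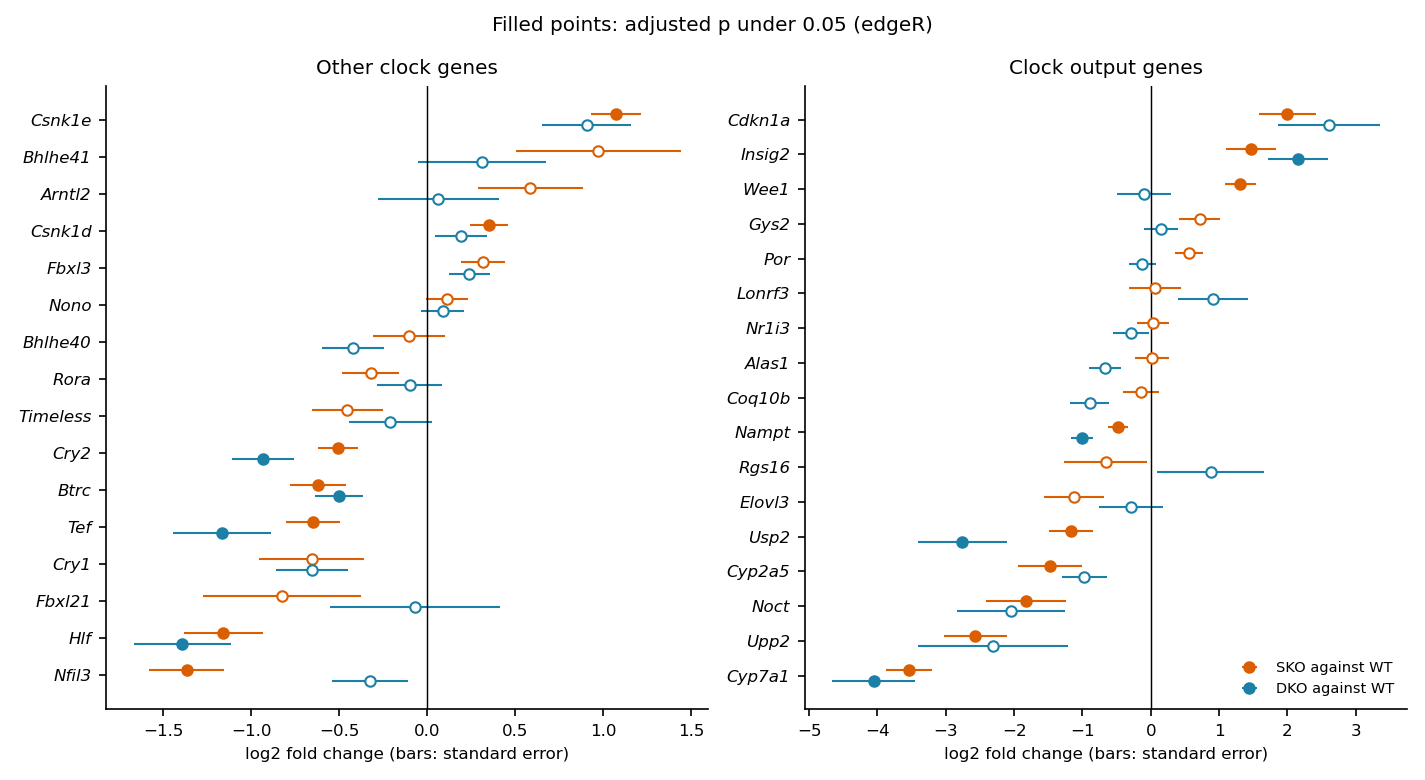
Log2 fold change against WT of 16 other clock genes and 17 clock output genes in SKO and DKO, with standard errors as bars; filled points have an adjusted p under 0.05 in edgeR. Tef, Hlf, Cry2 and Btrc are lower in both knockouts, and Nfil3 passes in SKO only, where it fell by 1.37, while the difference between the knockouts did not pass in edgeR.

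A list of 17 genes with clock-driven rhythms in liver was read in the same way. SKO against WT called 9 of them, 3 higher and 6 lower, and DKO against WT called 4, 1 higher and 3 lower, beside the same 32.1% and 10.5% of all genes. The count in DKO became 2 when any liver but DKO replicate 4 was left out. Cyp7a1, the rate-limiting enzyme of bile acid synthesis and a target of DBP, had the widest difference with all livers. It averaged 168 ± 16.2 CPM in WT, against 14.4 ± 7.19 in SKO and 9.92 ± 7.56 in DKO, which was 11.7-fold lower in SKO (edgeR adjusted p = 2.2e-05) and 16.6-fold lower in DKO (edgeR adjusted p = 0.00896). Usp2, a deubiquitinase with a strong hepatic rhythm, averaged 96.4 ± 24.7 CPM in WT and 43.0 ± 18.4 in SKO (log2 -1.17, edgeR adjusted p = 0.016). In DKO it read 7.48, 3.80, 6.66 and 38.1 CPM (log2 -2.76, edgeR adjusted p = 0.0315), so replicate 4 again lay apart. Nampt, the enzyme that limits NAD salvage, fell by 0.48 in SKO (edgeR adjusted p = 0.0243) and by 1.00 in DKO (edgeR adjusted p = 0.011). Insig2, which holds back sterol synthesis, rose by 1.47 in SKO (edgeR adjusted p = 0.00937) and by 2.16 in DKO (edgeR adjusted p = 0.0208).

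Without replicate 4 the log2 difference of DKO from WT was -4.13 for Cyp7a1, -3.99 for Usp2, -1.11 for Nampt and 2.46 for Insig2. The remaining calls of this list were in SKO against WT. Upp2 (uridine phosphorylase) was 5.93-fold lower, Noct (nocturnin) 3.55-fold lower and Cyp2a5, a P450 enzyme, 2.78-fold lower. Wee1, a cell cycle kinase with E-boxes, rose by 1.31 on the log2 scale and Cdkn1a, which encodes p21, by 2.00. In DKO against WT the log2 difference of Cdkn1a was 2.61 (edgeR adjusted p = 0.0531), that of Upp2 was -2.31 with all DKO livers below WT, and that of Noct was -2.04. These 3 values were as large as in SKO or nearly so, with a wider spread. Without replicate 4 they were 2.99, -5.33 and -3.69, and all 3 were called. Wee1 and Cyp2a5 were smaller in DKO against WT, at -0.10 and -0.97 with all livers, against 1.31 and -1.47 in SKO, and did not pass. In DKO against SKO, 4 of the 17 (Wee1, Nampt, Por and Alas1) had all DKO livers below all SKO livers, as did 1.86% of all tested genes, and 1 (Rgs16) had all above, as did 2.08%. Wee1 read 5.80 to 23.2 CPM in DKO against 31.2 to 49.8 in SKO, yet the difference of -1.40 did not pass in edgeR (adjusted p = 0.43), while DESeq2 called it (adjusted p = 0.0244). Between the knockouts edgeR called 0 of the 17 and DESeq2 called 1, and 6 had an unadjusted p under 0.05, beside 6.49% of all tested genes. Without DKO replicate 4, 11 were called in DKO against WT, 3 higher and 8 lower, beside 35.9% of all genes, and Usp2 was called lower than in SKO (log2 -2.83, edgeR adjusted p = 0.032), where 0.103% of all genes were called.

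Across all 12 livers, the 5 genes whose log2 CPM followed that of Arntl most closely among 9781 ranked were Asap2, Nek4, Stra6l, Itsn1 and Rab36, with Pearson r of 0.93 to 0.92. These points share the 3 genotypes and the 3 DKO livers with high Arntl, so the r values only describe the pattern. Asap2 read 16.5 to 23.8 CPM in DKO replicates 1 to 3, 9.16 in DKO replicate 4 and at most 14.3 elsewhere. The 5 that ran most against Arntl were Rilp, Coq10b, Pcsk4, Tspan4 and Ubac1, with r of -0.90 to -0.86. Coq10b is itself in the list of clock-driven genes, and read 20.6 to 22.9 CPM in DKO replicates 1 to 3 against 45.3 in replicate 4. The 10 clock genes themselves were left out of these rankings. The 5 nearest to Dbp were H2az2, Gm45909, Cnih4, Tef and Fmc1, with r of 0.88 to 0.83. Tef is a D-box factor like Dbp.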

How the data were processed

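RNA was extracted from flash-frozen liver with TRIzol and column purification, and the libraries were made and sequenced commercially. The authors deposited raw read counts per Ensembl gene, not normalized, and a table of FPKM values, which divide the counts by gene length and by a scaled library size. The submitters' processing notes name HISAT2 and GRCm38 (mm10), and the counting program is not given in the sources used here. Of 52073 deposited genes also in the GRCm38 annotation, 1485 (2.85%) have the same start, so the deposited gene coordinates are of another build and were not printed. RefSeq promoter windows come from GRCm38.p6 and were matched by symbol. The authors also deposited tables of log2 fold changes with p-values between the groups, which were not used.

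Genotypes were compared in pairs with edgeR 4.0.16 (R 4.3.3): TMM within the 8 livers, filterByExpr, quasi-likelihood test, two-sided, with Benjamini-Hochberg adjustment over all tested genes and a threshold of 0.05. Log2 CPM used a prior count of 2. DESeq2 1.42.0, limma 3.58.1 on FPKM, other scalings and filters, a replicate block and leaving out each liver were alternatives. Each liver was taken as its label says. The labels do not tie livers to litters or batches, so p-values measure the spread between these livers. Depth was 14710304 to 20030055 counts per liver, and a limit of 3 counts covers counting error only. The scripts were tested on simulated counts.

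The clock genes and the lists were chosen with earlier results of these data known. Genes named besides the 10 are those past the threshold in a comparison, the 3 smallest p of each stress list in SKO against WT, and the 5 with the highest or lowest r. A gene of each of 2 lists is not reported here. Por, Alas1, Rgs16, Cry1, Mt2, Dusp1, Cirbp, Hspa1a, Hspa1b, Hsph1 and Dnajb1 were named after their values were seen.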

Additional observations from a re-analysis of the deposited data

Results flagged for a closer look

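In 81 groups of 4 livers (26 genes, which are the 10 clock genes and the other clock and output genes called in a comparison, and the difference between the arms), the highest or lowest liver was compared with the rest by Dixon's ratio, whose critical value chance exceeds in about 1 of 20 groups, or 4.05 of 81. It was exceeded 8 times. Among the clock genes, Clock was 23.3 CPM in SKO replicate 2 beside 48.5 to 51.2 in the other SKO livers, and Ciart was 76.7 CPM in WT replicate 3 beside 38.8 to 43.8. DKO replicate 4 stood apart in 3 output genes. It had 66.03 CPM of Noct beside 6.15 to 7.96, 38.1 of Usp2 beside 3.80 to 7.48 and 407 of Upp2 beside 12.0 to 15.6, and in each it lay on the side of the WT livers. The other 3 were single livers. Nfil3 was 8.70 CPM in SKO replicate 1 beside 5.39 to 5.92. In WT replicate 3, Cyp7a1 was 192 CPM beside 156 to 162. Upp2 was 453 CPM in WT replicate 4 beside 604 to 609. What sets these livers apart was not tested.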

How the results depend on the processing

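Of 432 recomputed log2 fold changes of the 9 tested clock genes, 24 moved by more than the standard error. The sign changed in 29, which belong to 6 of the 27 fold changes, all of them 0.24 or less in size: Nr1d1 in the 3 comparisons, and Arntl, Per1 and Dbp in SKO against WT. In DKO against WT the number of clock genes called was 2, and it was 4 with DESeq2 and 6 without the livers with Xist counts. In that comparison DKO replicate 4 is the only such liver, so the last setting is the same fit as leaving out that replicate. Leaving out 1 liver gave 0 to 6 (0 without WT replicate 2, WT replicate 4 or DKO replicate 1, and 6 without DKO replicate 4). The other clock genes went from 4 to 7 without the Xist livers, and ranged from 0 to 7 when 1 liver was left out. The output genes went from 4 to 8 with DESeq2, to 7 with the replicate block and to 11 without the Xist livers, and ranged from 2 to 11 when 1 liver was left out. In SKO against WT, 2 clock genes were called and 1 with all 12 livers in one fit. Leaving out 1 liver gave 1 to 2 (1 without WT replicates 3 or 4 or SKO replicates 2 or 4), 6 to 9 other clock genes and 7 to 11 output genes. In DKO against SKO DESeq2 called 1 other clock gene and 1 output gene, 1 output gene was called without the Xist livers, and leaving out 1 liver gave 0 for the clock genes and the other clock genes and 0 to 1 for the output genes. The difference between the arms was 0.32 higher in SKO than in WT (0.03 to 0.53 with 1 liver left out), 2.32 higher in DKO than in WT (1.76 to 2.93) and 2.00 higher in DKO than in SKO (1.43 to 2.61).

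Over all genes, edgeR called 4576, 1510 and 3 genes for SKO against WT, DKO against WT and DKO against SKO, and DESeq2 called 4973, 2509 and 91. With the replicate number as a block the calls were 4111, 691 and 0, and those of the clock genes were 2, 3 and 0. The numbers do not pair the livers, since the deviations of 12 same-numbered pairs correlated at -0.39 to 0.11, with 2 of 12 above 0.1. Depth limits Npas2, which had at most 20 counts in any liver, and with it the difference between the arms, which was not recomputed without Npas2.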

Other observations

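Per1 responds to glucocorticoids as well as to the clock, and the heat shock system to body temperature, so lists of both kinds were read in the same livers. Of 10 glucocorticoid-responsive genes, SKO against WT called 3, a share near the 32.1% of all genes called there. Tsc22d3 (GILZ), which glucocorticoids induce directly, was 149 ± 85.7 CPM in WT and 34.4 ± 15.4 in SKO, 4.35-fold lower with no overlap (edgeR adjusted p = 0.00203). Klf9, another direct target, fell by 0.56 on the log2 scale (edgeR adjusted p = 0.0365). Mt1, a metallothionein gene that metals also induce, rose by 1.13 (edgeR adjusted p = 0.0455). DKO against WT called 3 as well, where 10.5% of all genes were called, with Mt1 and Mt2 higher by 1.72 and 1.39 and Dusp1 lower by 1.19. The members that passed did not share a direction. Without DKO replicate 4, an alternative added after the values were seen, 7 were called in DKO against WT, 2 higher and 5 lower, where 35.9% of all genes were. Tsc22d3 was 23.8, 28.0 and 20.4 CPM in DKO replicates 1 to 3 and 107 in replicate 4.

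Of 8 temperature-responsive genes, 3 rose in SKO against WT and none fell, beside the same 32.1% of all genes called and 16.7% called higher. Rbm3, an RNA-binding protein induced by mild cold, was 71.5 ± 12.8 CPM in WT and 123 ± 23.7 in SKO (log2 0.77, edgeR adjusted p = 0.00514). The chaperone genes Hspa8, which is expressed constitutively, and Hsp90aa1 rose by 0.97 (edgeR adjusted p = 0.00711) and 0.87 (edgeR adjusted p = 0.0207). Cirbp, a relative of Rbm3 that cold also induces, gave -0.10. The other heat shock genes of the list, Hspa1a, Hspa1b, Hsph1 and Dnajb1, did not pass (edgeR adjusted p of 0.194, 0.265, 0.68 and 0.316). In DKO against WT edgeR called 0 of the 7 tested, 0 had an unadjusted p under 0.05, beside 29.4% of all tested genes, and DESeq2 called 0. That count rested on replicate 4. Hspa8 was 1938, 2570 and 2111 CPM in DKO replicates 1 to 3 and 952 in replicate 4, and Hsp90aa1 was 242, 380 and 262 against 107. Without it 3 of 8 were called, namely Rbm3, Hspa8 and Hsp90aa1, which rose by 0.49, 0.92 and 0.72, where 18.4% of all genes were called higher. In DKO against SKO edgeR and DESeq2 called 0 genes of either list, and in edgeR 2 of the first and 0 of the second had an unadjusted p under 0.05, beside 6.49% of all tested genes.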
